A study of Mus musculus with 15 samples.

Results

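The Platr genes are a numbered family of mouse loci whose name stands for pluripotency-associated transcript. The 30 genes described here are those whose symbol is Platr followed by a number, out of 51627 genes in the embryonic stem cell (ESC) table and 53564 genes in the embryo table, and the same 30 symbols stand in both. Members were chosen by symbol and by no measured value, but the family was put forward with its fold changes in both comparisons known, so the counts below describe these libraries and are not independent evidence. RefSeq gives Platr18 and Platr24 as older names of Lncenc1 and Kis2, and these 2 loci are not among the 30.

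Most Platr genes make long noncoding RNAs, transcripts that are spliced like messenger RNAs but carry no long reading frame. They were named as RNAs that are abundant in mouse ESCs and decline when the cells differentiate, and for most of them no molecular role is firmly known. Platr4 has been linked to the formation of mesoderm and endoderm and Platr14 to the expression of differentiation genes, in both cases from work in mouse ESCs. Zscan4, the gene family manipulated in this study, encodes SCAN-domain zinc finger proteins that appear in a burst in the 2-cell embryo and, within ESC cultures, in rare cells.

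The ESC groups were J1 cells labelled Zscan4 OE (overexpression, 2 libraries) and wild type J1 controls (2 libraries), all grown without feeder cells and at the same labelled passage. The embryo groups were 2-cell embryos labelled Zscan4 RNAi (6 libraries) and wild type 2-cell controls (5 libraries). The sources used here do not give how Zscan4 was overexpressed, how RNAi was delivered, the mouse strain of the embryos, the number of embryos in a library or whether the J1 cells are 1 clone. Every title says RNA-Seq, although the labels name genomic DNA as the molecule, list a DNA kit for the libraries and carry the J1 culture text on the embryos too. As no label says that replicates were separate cultures or embryo pools, the spread behind each p-value is that between these libraries and may be technical. Values are normalised reads, that is, reads assigned to a gene divided by 1 size factor per library.

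Depth was 21820093 to 26555027 assigned reads in the ESC libraries and 695524 to 1432566 in the embryo libraries. Summed Zscan4 reads were 19449 to 20005 normalised reads in the overexpression libraries, against 152 to 212 in ESC controls. The sum was 13.9 to 383 normalised reads in RNAi embryos, against 345 to 1064 in control embryos, so the embryo groups overlapped. The overexpression libraries stood further apart from each other than the ESC controls did: chi-square per degree of freedom between their reads was 140, against 2.74 between the controls. Between embryo replicates it was 11.3 to 30.7 for RNAi pairs and 8.08 to 25.8 for control pairs, values that grow with depth and are not set against those of the deeper ESC libraries. All 7 ESC markers were measured, with sums of 84862 to 102354 normalised reads in overexpression libraries and 74218 to 74352 in controls. All 16 of the 2-cell markers had reads in the embryos. In bulk libraries, fewer cells that make an RNA and less RNA per cell cannot be told apart.

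The 30 genes lie on 13 chromosomes, with 7 on chromosome 2 and 5 on chromosome 1. Their exonic length runs from 375 to 6180 bases with a median of 1314, in 2 to 22 exonic blocks (GENCODE vM21, mm10). GENCODE calls 28 of them noncoding and 2, Platr17 and Platr25, protein-coding; RefSeq lists Platr17 under Smim40, a small integral membrane protein, and Platr25 as a noncoding RNA. A protein-coding gene lies within 100 kb of 27 members. Another gene overlaps 11 members, and for 4 of these the exons themselves overlap: Platr9 with Cga, Platr16 with Gm13230, Platr30 with Gm26553 and Platr31 with Tigar. As the strand setting of the counting is not given, reads over the shared exonic bases cannot be told apart. Platr16 and Gm13230 lie on the same strand, so for this pair the strand setting would not separate the reads either. Of the 30, 15 share no 50-base stretch with the transcripts of other genes, while Platr30 shares 91.97% of its 50-base stretches with 3 other genes, Platr16 39.31%, Platr2 29.87% and Platr17 21.9%. Values of these 4 are uncertain for that reason.

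The promoter windows of 4 members that were higher in the overexpression libraries are printed here because they show the DNA at the starts of transcripts that the ESC results turn on. Each runs 5′ to 3′ on the gene's strand from 250 bases before to 50 bases after the RefSeq start (GRCm38.p6), and in each the RefSeq start falls on the GENCODE 5′ end. Platr30 has such a window too and is left out because of its shared sequence. The windows are Platr10 at chr3:75655682-75655981, Platr7 at chr10:84553289-84553588, Platr8 at chr2:109913270-109913569 and Platr21 at chrX:139357689-139357988, all on the minus strand. Capitals mark matches to the motifs searched.
Platr10: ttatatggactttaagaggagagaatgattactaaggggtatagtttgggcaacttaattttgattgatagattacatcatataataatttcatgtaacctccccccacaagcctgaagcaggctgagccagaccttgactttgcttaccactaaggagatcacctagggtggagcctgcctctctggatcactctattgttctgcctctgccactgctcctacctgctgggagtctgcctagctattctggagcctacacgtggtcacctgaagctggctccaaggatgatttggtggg
Platr7: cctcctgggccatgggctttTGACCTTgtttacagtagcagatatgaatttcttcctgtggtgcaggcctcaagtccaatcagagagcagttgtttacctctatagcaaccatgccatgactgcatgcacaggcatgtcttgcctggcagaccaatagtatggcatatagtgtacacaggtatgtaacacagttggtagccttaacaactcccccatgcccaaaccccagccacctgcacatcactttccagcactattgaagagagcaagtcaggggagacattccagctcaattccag
Platr8: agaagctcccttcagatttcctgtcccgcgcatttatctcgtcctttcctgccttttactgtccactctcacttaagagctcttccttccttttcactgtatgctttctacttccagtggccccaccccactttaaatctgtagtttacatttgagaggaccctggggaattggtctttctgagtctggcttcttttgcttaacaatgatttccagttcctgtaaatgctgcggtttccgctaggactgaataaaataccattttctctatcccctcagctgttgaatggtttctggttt
Platr21: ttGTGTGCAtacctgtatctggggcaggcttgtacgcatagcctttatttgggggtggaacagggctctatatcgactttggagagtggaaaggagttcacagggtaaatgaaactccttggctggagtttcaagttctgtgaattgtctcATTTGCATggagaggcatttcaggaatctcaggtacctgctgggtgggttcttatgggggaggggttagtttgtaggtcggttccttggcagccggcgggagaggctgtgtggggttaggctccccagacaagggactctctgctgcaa

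RefSeq promoter windows were matched for 13 of the 30 members, 15 windows in all, because Platr6 and Platr21 have more than 1 start. Motifs of 5 kinds were searched on both strands, without regard to overlap: the octamer ATGCAAAT bound by Oct4-type factors, TGCACAC reported for Zscan4c, the TATA box TATAAA, the Esrrb core AAGGTCA and the Klf motif GGGTGTGG. Each was present in 1 of the 15 member windows (6.67%). Among all 32851 RefSeq promoter windows of that length, 1.74% held the octamer, 4.4% TGCACAC, 13.6% the TATA box, 4.72% the Esrrb core and 3.56% the Klf motif. In the printed windows the Esrrb core lies in Platr7, and the octamer and TGCACAC lie in Platr21, all read from the minus strand of the window; Platr10 and Platr8 hold none of the 5. A match is a description of letters, and no match says only that these letters are not in this window. Median GC content was 49.0% in member windows and 52.7% over all windows.

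Platr17 is shown by its reading frame because it is 1 of the 2 members called in both comparisons and GENCODE gives it a protein. The frame lies at chr17:33905638-33905883 on the plus strand (GENCODE vM21, mm10), holds 81 codons before the stop and is printed with its start and stop codons in capitals.
Platr17: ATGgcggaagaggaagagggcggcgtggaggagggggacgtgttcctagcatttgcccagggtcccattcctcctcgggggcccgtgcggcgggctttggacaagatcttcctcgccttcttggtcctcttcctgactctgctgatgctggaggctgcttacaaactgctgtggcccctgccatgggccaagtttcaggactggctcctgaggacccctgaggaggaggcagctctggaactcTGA

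In the ESCs, some Platr RNAs were called higher with Zscan4 overexpression, led in abundance by Platr10 and in log2 fold change by Platr8. Of the 27 members that passed the filter on low values, 10 rose, 0 fell and 17 did not pass the test (limma on log2(value + 1), Benjamini-Hochberg adjusted p under 0.05 over all 20888 genes tested). Over all genes tested, 23.2% were called, 11.7% higher and 11.4% lower. The median log2 fold change was 0.90 over the 27 members and -0.02 over all genes tested, with 20 members positive and 7 negative. Platr9, Platr19, Platr30 and Platr31 met the filter through the overexpression libraries alone, and Platr1, Platr12 and Platr23 through the controls alone, so counts over tested members are descriptions. Platr19 had 6 reads in overexpression libraries and 0 reads in controls. The 3 members not tested were Platr13 and Platr32, with no read in any ESC library, and Platr29, with 3 normalised reads or fewer in each.

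Platr10, an lncRNA on chromosome 3, was the member with the most reads per kilobase in the overexpression libraries. It had 2737 and 3389 normalised reads in overexpression libraries, against 714 and 778 in controls. Both overexpression libraries lay above both controls, and the means were 4.11-fold apart (log2 fold change 2.03 ± 0.19, SE; limma adjusted p = 0.0129). Platr2, on chromosome 13, had 748 and 1004 normalised reads in overexpression libraries, against 152 and 117 in controls. Its groups did not overlap either, with a log2 fold change of 2.69 ± 0.27 (SE) and a limma adjusted p of 0.0137.

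Platr7 was nearly level within each group. It had 449 and 441 normalised reads in overexpression libraries and 129 and 113 in controls, a log2 fold change of 1.87 ± 0.21 (SE; limma adjusted p = 0.0155). Platr3 had 272 and 328 normalised reads in overexpression libraries and 84.8 and 104 in controls, a log2 fold change of 1.66 ± 0.26 (SE; limma adjusted p = 0.0230). For Platr7 and Platr3 the overexpression libraries lay above both controls.

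Among members called higher and with more than 3 control reads, Platr8 had the largest fold. It had 62.0 and 85.8 normalised reads in overexpression libraries, against 6.67 and 9.36 in controls, a 9.22-fold difference of means (log2 fold change 3.05 ± 0.41, SE; limma adjusted p = 0.0187). Platr30 had 11.9 and 16.7 normalised reads in overexpression libraries, against 0.952 and 1.87 in controls. Its controls held 3 reads in all, so its ratio of summed reads, 9.85, has a wide 95% interval from counting, 3.03 to 50.7 (limma adjusted p = 0.0301).

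Of the other 4 called members, Platr17, Platr25 and Platr6 varied more between the overexpression libraries, relative to their means, than the members above. Platr21 did not. Platr17 had 541 and 922 normalised reads in overexpression libraries, against 224 and 233 in controls (log2 fold change 1.62 ± 0.32, SE; limma adjusted p = 0.0337). Platr25 had 523 and 305 in overexpression libraries, against 146 and 147 in controls (1.44 ± 0.33, SE; limma adjusted p = 0.0450). Overexpression 2 was the higher library for Platr17 and overexpression 1 for Platr25. Platr6 had 105 and 64.4 normalised reads in overexpression libraries and 21.0 and 20.6 in controls (log2 fold change 1.93 ± 0.39, SE; limma adjusted p = 0.0354). Platr21 had 229 and 176 in overexpression libraries and 87.6 and 74.9 in controls (1.30 ± 0.28, SE; limma adjusted p = 0.0391). In all 4 both overexpression libraries lay above both controls.

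The overexpression and control groups did not overlap for 18 of the 27 members, 13 of them higher and 5 lower, and among all genes tested the share without overlap was 68.8%, with 34.2% higher and 34.6% lower. Just outside the threshold were Platr22 (log2 fold change 1.36, limma adjusted p = 0.0570), Platr1 (-2.16, 0.0575), Platr28 (0.90, 0.0657) and Platr12 (-2.89, 0.0786). Platr1 rested on 1 read in overexpression libraries and 11 reads in controls, and Platr12 on 4 reads and 32 reads. With either control library left out, or with the spread of the overexpression libraries alone, no member was called at an adjusted p under 0.05; 7, 6 and 9 members then had an unadjusted p under 0.05, against 15 with all libraries.

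**Figure D1:**
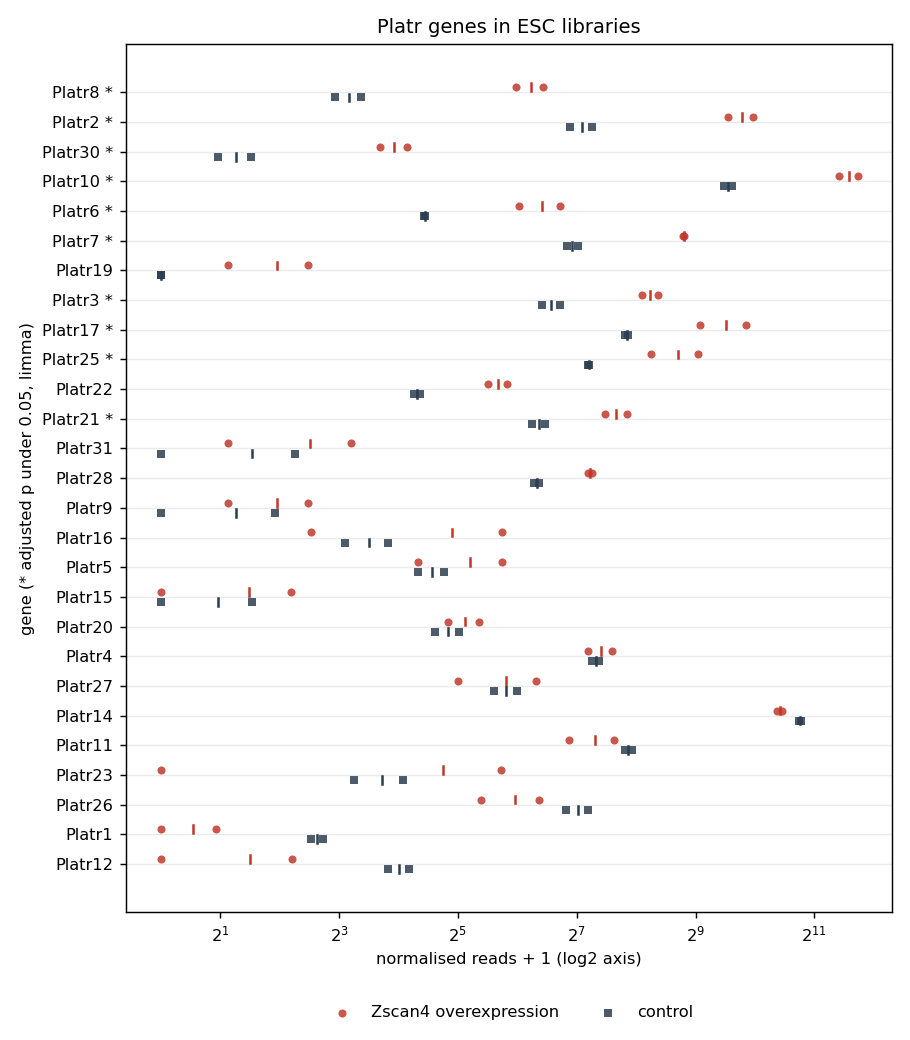
Normalised reads plus 1 (log2 axis) of the 27 Platr genes tested in ESC libraries, ordered by log2 fold change; circles are the 2 overexpression libraries, squares the 2 controls, short lines the group means, and an asterisk marks an adjusted p under 0.05. For the 10 starred genes both overexpression libraries lie above both controls, with Platr10 at 2737 and 3389 normalised reads against 714 and 778.

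Platr14 was the most abundant member in ESC controls and did not pass the test. It had 1325 and 1404 normalised reads in overexpression libraries, against 1709.6 and 1745 in controls (log2 fold change -0.34 ± 0.15, SE; limma adjusted p = 0.175). Platr11 had 198 and 116 normalised reads in overexpression libraries, against 223 and 243 in controls (log2 fold change -0.62 ± 0.34, SE; limma adjusted p = 0.240). Both had overexpression libraries below both controls. The mesoderm-linked Platr4 had 193 and 145 normalised reads in overexpression libraries and 151 and 166 in controls, and these overlapped.

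Levels of different members can be compared as RPKM, reads per kilobase of exon scaled to the library's assigned reads. On that scale Platr10 averaged 69.7 RPKM in overexpression libraries and 17.4 RPKM in controls. Platr2 averaged 66.7 RPKM in overexpression libraries and 10.5 RPKM in controls. Platr17 stood at 35.8 RPKM with overexpression and 11.5 RPKM in controls, and Platr14 at 34.4 RPKM with overexpression and 44.6 RPKM in controls. Mean levels were thus highest for Platr10 and Platr2 with overexpression and for Platr14 in controls.

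The summed Platr level was 7847 and 8853 normalised reads in overexpression libraries, against 4003 and 4158 in controls, a log2 ratio of 1.03. Platr10 made up 36.6% of that sum on average in overexpression libraries and 18.3% in controls, while Platr14 made up 16.4% in overexpression libraries and 42.3% in controls. Without Platr10 the log2 ratio was 0.665. No p is given for the sum because its members were chosen with results known.

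**Figure D2:**
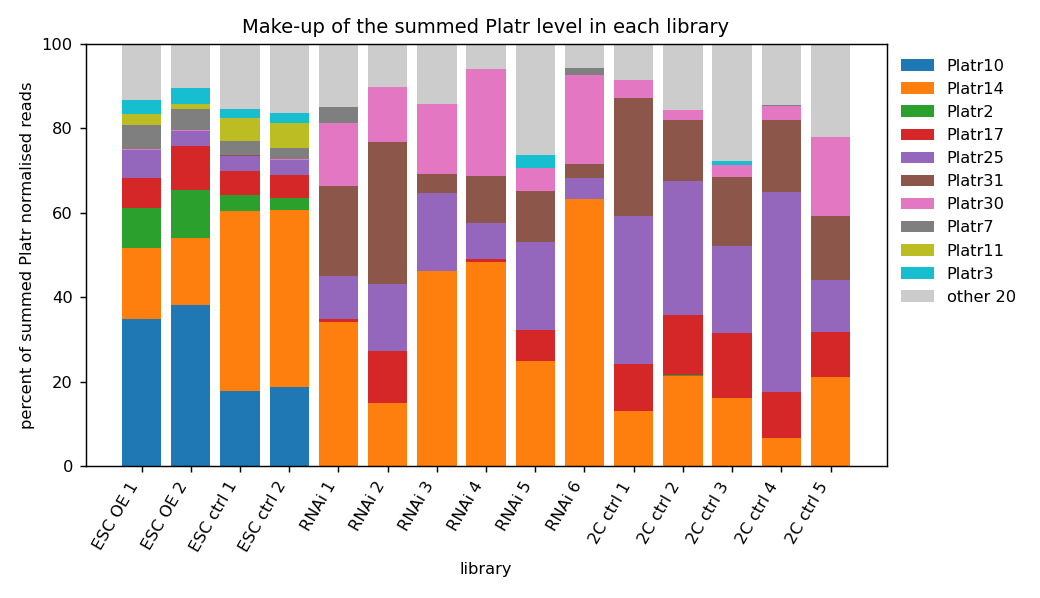
Percent of the summed Platr normalised reads that each of 10 members takes in each library, with the other 20 members in grey; overexpression or RNAi libraries stand left of their controls. Platr10 takes 36.6% on average with overexpression against 18.3% in ESC controls, and no share in any embryo library.

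In 2-cell embryos, few Platr genes were detectable at this depth. Members with reads numbered 8 to 15 in RNAi libraries and 9 to 15 in controls, and 9 of the 30 passed the filter of 1 normalised read in at least 5 libraries. No read was found in any of the 11 libraries for Platr5, Platr10, Platr11, Platr12, Platr13, Platr26 and Platr32. Over 11413855 reads, a count of 0 allows up to 0.263 RPM (reads scaled to the library total), whereas Platr10 stood at 30.4 RPM in ESC controls. The tables were normalised separately, so this sets levels side by side and tests nothing. Such floors cover counting error only.

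Platr RNAs that could be tested were lower or not called in RNAi embryos. Of the 9 members tested, 2 fell, 0 rose and 7 did not pass the test, where 18.2% of all 16417 genes tested were called, 6.13% higher and 12.0% lower (limma as for the ESCs). Higher genes made up 33.8% of those calls, and 46.5% with quantile normalisation. Platr16, Platr17 and Platr22 met the filter through the 5 controls alone, so the counts and the median over tested members are descriptions. The median log2 fold change of the 9 was -1.26, against -0.03 over all genes tested. No member had groups that did not overlap, compared with 7.33% of all genes tested, of which those lower made up 4.28% of genes. The 7 members that did not pass had limma adjusted p-values from 0.0583 to 0.586.

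Platr17 showed the largest difference. In RNAi libraries 1 to 6 it had 0.687, 14.8, 0, 1.16, 10.8 and 0 normalised reads, against 22.6, 44.3, 43.1, 31.6 and 11.7 in controls 1 to 5. RNAi 2 lay above control 5, and otherwise RNAi libraries lay below the controls. Mean levels were 4.57 ± 6.50 (SD, n = 6) in RNAi embryos and 30.7 ± 13.8 (SD, n = 5) in controls, a log2 fold change of -3.28 ± 0.75 (SE; limma adjusted p = 0.00694), from 32 reads and 157 reads.

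Platr25 had 11.0, 18.9, 22.2, 11.6, 30.7 and 5.21 normalised reads in RNAi libraries 1 to 6, against 71.3, 98.1, 58.4, 139 and 13.7 in controls 1 to 5. Control 5 was the one control inside the range of the RNAi libraries. Its means were 16.6 ± 9.16 (SD, n = 6) in RNAi embryos and 76.2 ± 46.7 (SD, n = 5) in controls, with a log2 fold change of -1.99 ± 0.54 (SE; limma adjusted p = 0.0166). The call for Platr25 was lost without control 2 (limma adjusted p = 0.0535) or without control 4 (0.0615).

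Platr31, which overlaps Tigar, lay just outside the threshold. It had 22.7, 40.2, 5.22, 15.1, 18.0 and 3.47 normalised reads in RNAi libraries 1 to 6, against 57.0, 44.3, 45.9, 50.3 and 16.6 in controls 1 to 5 (log2 fold change -1.52 ± 0.55, SE; limma adjusted p = 0.0583). Control 5 lay among the RNAi libraries, and the other 4 controls lay above all 6 of them. Platr16 had 2.75, 6.56, 0, 1.16, 6.31 and 0.868 normalised reads in RNAi libraries and 5.03, 16.2, 15.3, 8.20 and 3.91 in controls (log2 fold change -1.63, limma adjusted p = 0.0881).

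A pair of members had positive log2 fold changes without passing the test. Platr30 had 15.8, 15.6, 19.6, 34.8, 8.11 and 22.6 normalised reads in RNAi libraries, against 8.39, 7.38, 8.35, 9.37 and 20.5 in controls (0.77, limma adjusted p = 0.281). Platr14 had 36.4, 18.0, 54.8, 66.2, 37.0 and 67.7 in RNAi libraries, against 26.8, 66.4, 45.9, 19.9 and 23.5 in controls (0.36, limma adjusted p = 0.586). Their groups overlapped. The other 3 tested members, Platr9, Platr22 and Platr23, had log2 fold changes from -1.26 to -0.76 and were not called.

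**Figure D3:**
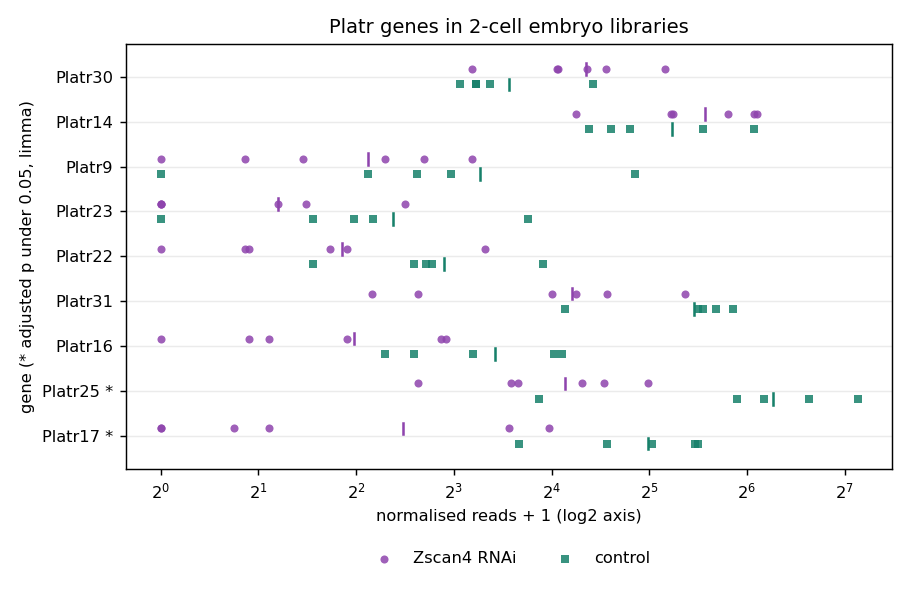
Normalised reads plus 1 (log2 axis) of the 9 Platr genes tested in 2-cell embryos, ordered by log2 fold change; circles are the 6 RNAi libraries, squares the 5 controls, short lines the group means, and an asterisk marks an adjusted p under 0.05. Control 5 lies among the RNAi libraries for Platr25, at 13.7 normalised reads against 5.21 to 30.7 in RNAi libraries.

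On the RPKM scale, Platr14 averaged 28.7 RPKM in RNAi embryos and 24.4 RPKM in controls. Platr17 averaged 6.11 RPKM in RNAi embryos and 39.8 RPKM in controls, and Platr31 12.1 RPKM in RNAi embryos and 30.7 RPKM in controls. The highest member was thus Platr14 in RNAi embryos and Platr17 in controls. The summed Platr level was 106 to 148 normalised reads in RNAi libraries (123 ± 16.6, SD, n = 6), against 110.5 to 310 in controls (240.1 ± 83.2, SD, n = 5), with control 5 the lowest control. The log2 ratio was -0.97. Platr25 made up 13.1% of that sum on average in RNAi libraries and 29.4% in controls, while Platr14 made up 38.7% in RNAi libraries and 15.8% in controls. Of the 10 members called higher in ESCs, Platr2, Platr3, Platr6, Platr7, Platr8, Platr10 and Platr21 were too low to test in embryos, with at most 9 reads over the 11 libraries each.

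The 2 comparisons share no libraries. Of the 9 members tested in both, Platr17 and Platr25 were higher with Zscan4 overexpression in ESCs and lower with Zscan4 RNAi in embryos. Of the 13072 genes tested in both tables, 2.49% were called that way. Platr17 met the embryo filter only through the controls, where it was higher, so the count of members is a description. Counting signs alone, Platr9, Platr16, Platr17, Platr22, Platr25 and Platr31 had a positive log2 fold change in ESCs and a negative one in embryos. So did 28.8% of all genes tested in both. Platr9 and Platr31 met the ESC filter, and Platr16 and Platr22 the embryo filter, only through the group where they were higher. The ESC signs of Platr16 and Platr31 also changed when a single library was left out. These signs are therefore descriptions. For Platr17 the log2 fold changes were 1.62 in ESCs and -3.28 in embryos, and for Platr25 1.44 and -1.99. Platr30 was higher in ESCs (2.67) and was not called in embryos (0.77). It met the ESC filter through the overexpression libraries alone. Its values, like those of Platr16 and Platr17, are uncertain because of shared sequence. Platr14, an abundant member in both tables, was not called in either. The difference between the ESC and embryo effects was not tested, since the tables were normalised separately.

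**Figure D4:**
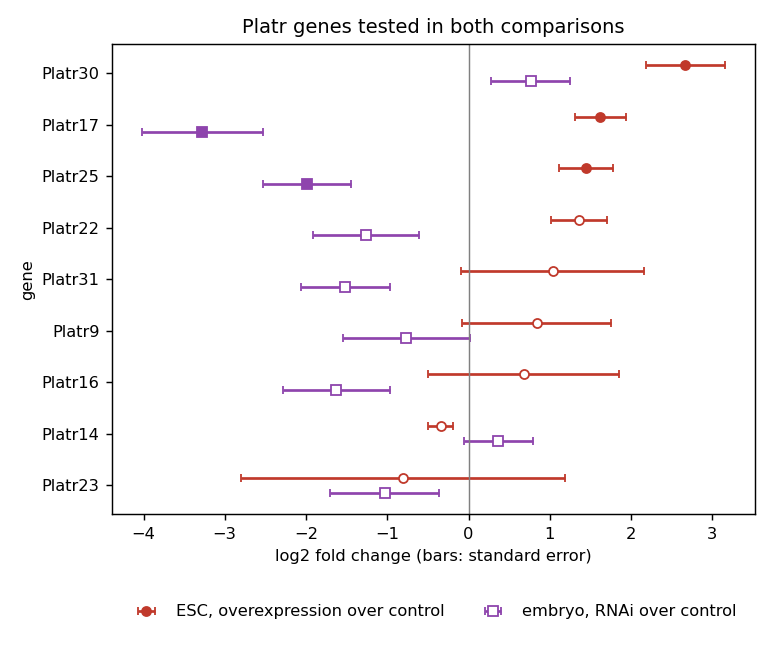
Log2 fold change with its standard error for the 9 Platr genes tested in both comparisons; circles are ESCs (overexpression over control), squares are embryos (RNAi over control), and filled symbols have an adjusted p under 0.05. Platr17 (1.62 and -3.28) and Platr25 (1.44 and -1.99) are filled on opposite sides of 0.

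Protein-coding genes next to the members were called in some cases. In ESCs, 8 called members have a tested coding gene as nearest neighbour within 100 kb, and 2 of these neighbours were called, both higher; 8 of all 24 neighbour pairs with a member tested were called, against 23.2% of all genes. Ckap4, a membrane protein of the endoplasmic reticulum that lies 13355 bases from Platr7, had 1838 and 1975 normalised reads in overexpression libraries and 688 and 714 in controls (log2 fold change 1.44, limma adjusted p = 0.0152). Sgk1, a serum- and glucocorticoid-regulated kinase 37333 bases from Platr6, was also higher (1.09, limma adjusted p = 0.0247). The other 6 were not called: Daxx beside Platr17 (0.90, 0.0553), Gm5141 beside Platr25 (0.83, 0.116), Trap1a beside Platr21 (0.30, 0.202), Serpini1 beside Platr10 (-0.02, 0.972), Lin7c beside Platr8 (-0.61, 0.269) and Plcb4 beside Platr3 (-1.05, 0.119). Daxx is a histone H3.3 chaperone.

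Tigar, a fructose-bisphosphatase in p53 signalling that overlaps Platr31 on the opposite strand, moved in both comparisons. It was called higher in overexpression ESCs (log2 fold change 2.17, limma adjusted p = 0.0117) and lower in RNAi embryos (-2.43, limma adjusted p = 0.00707). Platr31 itself had log2 fold changes of 1.03 (not called) and -1.52 (not called), and 122 of its exonic bases overlap those of Tigar. Without the strand setting, reads over those bases cannot be told apart, while the rest of the Platr31 exons lie outside the exons of Tigar. In embryos, 1 of 8 neighbour pairs with a tested member was called, which was Tigar, against 18.2% of all genes tested. Zfp281 is counted in the pairs of both Platr22 and Platr23. The neighbours of Platr17 and Platr25 were not called (Daxx -0.46, Gm5141 -0.56).

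**Figure D5:**
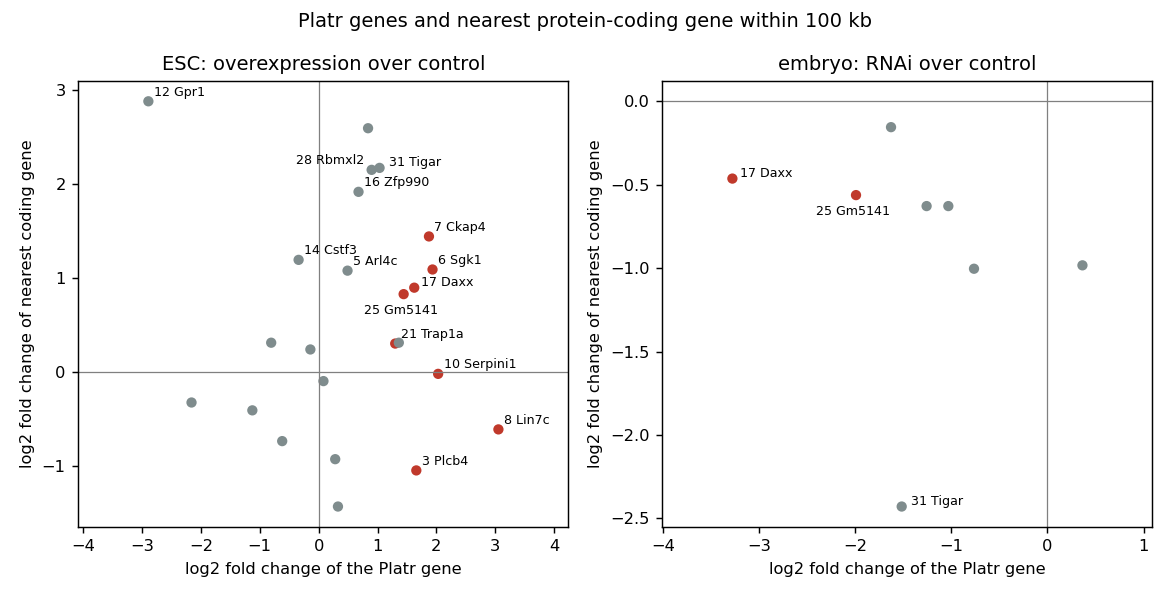
Log2 fold change of each tested Platr gene (x axis) against that of its nearest protein-coding gene within 100 kb (y axis), in ESCs (left) and embryos (right); red points are Platr genes with an adjusted p under 0.05, and labels give the Platr number and its neighbour where either passed. Tigar beside Platr31 stands at 2.17 in ESCs and -2.43 in embryos.

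Other RNAs of pluripotent cells gave the setting. Of 41 pluripotency regulators tested in ESCs, 15 were higher and 2 lower with overexpression, with a median log2 fold change of 0.67 against -0.02 over all genes, of which 11.7% were called higher and 11.4% lower. The smallest adjusted p-values were those of Dppa2 (log2 fold change 3.50), Nr0b1 (2.18), L1td1 (2.76) and Tcl1 (2.56), with Dppa2, a chromatin regulator of early embryos, 11.3-fold higher. Of 28 other long noncoding RNAs, 4 were higher and 1 lower, with 11.7% of all genes higher and 11.4% lower, and with a median of 0.54; the 4 of smallest adjusted p were Mirg (log2 fold change 4.04), Tsix (2.49), Panct2 (1.15) and Airn, which had 14 reads in overexpression libraries and 0 reads in controls. Against a floor of 3 reads over the control group, Airn was at least 5.11-fold higher. Mirg, the host transcript of a microRNA cluster in the imprinted Dlk1 region, was 16.6-fold higher.

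In embryos, 1 of 40 tested pluripotency regulators was higher and 10 were lower with RNAi, with a median log2 fold change of -0.66 against -0.03 over all genes, of which 6.13% were called higher and 12.0% lower. The smallest adjusted p-values were those of Dppa5a (log2 fold change -2.20), Fbxo15 (-2.19), Fgf4 (-3.69) and Dppa4 (-2.61). Of 23 other long noncoding RNAs, 0 were higher and 4 lower with a median of -0.13: Lncenc1, Snhg1 (-2.61), Snhg3 (-2.28) and Dancr (-2.48). Lncenc1, which RefSeq gives the older name Platr18, averaged 2.40 ± 4.61 normalised reads (SD, n = 6) in RNAi embryos and 30.0 ± 7.75 (SD, n = 5) in controls (log2 fold change -3.89, limma adjusted p = 0.00226), and in ESCs it was not called (0.60, limma adjusted p = 0.118).

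Some marker lists of other cell types differed between the groups. Over all genes tested, 11.7% were called higher and 11.4% lower in ESCs, and 6.13% higher and 12.0% lower in embryos. In overexpression ESCs the 16 markers of 2-cell embryos summed to 20743 to 21148 normalised reads, against 184 to 226 in controls, and 12 were called higher. This list includes manipulated Zscan4 genes. The 9 Zscan4 genes counted summed to 19449 to 20005 normalised reads in overexpression libraries and 152 to 212 in controls. The rise of this list therefore cannot be read apart from the manipulation itself. The 8 trophectoderm markers summed to 31037 to 47015 normalised reads in overexpression ESCs and 2850 to 2953 in controls, with 5 called higher and 0 lower. Eomes, on this list, had a negative log2 fold change and was not called (-0.74, limma adjusted p = 0.174). The 6 primed epiblast markers summed to 5882 to 8957 normalised reads in overexpression ESCs and 1889 to 1902 in controls, with 4 called higher and 1 lower. Sums of fibroblast or feeder markers overlapped between the ESC groups, at 22347 to 41750.0 in overexpression libraries and 31947 to 35079.9 in controls. Of the 5 tested, 2 were called higher and 1 lower, with a median log2 fold change of 1.91. In RNAi embryos the 16 markers of 2-cell embryos summed to 791 to 1712 normalised reads, against 1452 to 3009 in controls, with 6 called lower and 1 higher. This list again includes Zscan4 genes, the RNAi target. Summed Zscan4 reads were 13.9 to 383 in RNAi embryos and 345 to 1064 in controls. The oocyte markers summed to 3856 to 10506 normalised reads in RNAi embryos, against 2105 to 4080 in controls, with 3 of 10 called higher. Cumulus markers were near 0, at 4.92 to 9.61 in RNAi embryos and 2.52 to 4.89 in controls, with Amh, Has2 and Inha at 0 and none called. The part of these markers in the Platr results was not tested.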

How the data were processed

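RNA was measured in 4 ESC and 11 2-cell embryo libraries. Per the submitters' processing notes, the tools used were HISAT2, featureCounts and Trimmomatic and the build was mm10; the sources used here give neither the annotation nor the strand setting nor the treatment of reads matching several genes. The authors deposited 1 table for each cell type, and the deposited unit is a signal, reads per gene scaled by 1 size factor for each library. The values show it: 100% are whole multiples of 1 read's worth within 0.01 read (a read is worth 0.687 to 1.39 in embryo libraries). Recomputed factors differed by at most 0.0932% in ESCs and 0% in embryos. Embryo control columns are numbered 1 to 5 and only name libraries.

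Groups came from the genotype and title labels. Members and lists were chosen with earlier results of these data known. Each table was fitted on its own libraries with limma 3.58.1 (trend, no covariates, R 4.3.3) on log2(value + 1), for genes of at least 1 normalised read in at least 2 ESC or 5 embryo libraries, with Benjamini-Hochberg adjustment over all genes tested and a threshold of 0.05; this understates changes of low genes. Folds are ratios of group means; with up to 3 reads in a group, the ratio of summed reads has its exact 95% binomial interval, and a count of 0 has a floor of 3 reads. Intervals and floors cover counting error only. Values were given for every member called and for the 5 with the most RPKM in each table; from each list, the 4 genes of smallest adjusted p were named. Alternatives were other pseudocounts, no filter, other scalings, edgeR 4.0.16, DESeq2 1.42.0 and voom on recovered reads, a replicate block and leaving out each library. The fit was also run on simulated data with the same spread in both groups of a table. That run cannot speak to the unequal spread of the ESC groups. Sequences are from RefSeq (GRCm38.p6) and GENCODE vM21.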

Additional observations from a re-analysis of the deposited data

Results flagged for a closer look

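In embryos, 20 sets of libraries (each of the 9 tested members and the family sum, in each group) were checked for a library far from the others. Dixon's test was used, which flags about 1 set in 20 by chance when values are normally distributed, and 4 were found. The values were untransformed and include low counts, so that share need not hold here. Platr22 stood at 9.02 normalised reads in RNAi 5, with the next RNAi library at 2.75. Platr30 stood at 20.53 in control 5, with the next control at 9.37. Control 3 was high for Platr9, at 27.83 with the next control at 6.84, and for Platr23, at 12.52 with the next control at 3.51. None of these 4 members was called in embryos. For Platr9, reads cannot be told apart from those of Cga where the exons overlap.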

How the results depend on the processing

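The ESC counts of the limma fit depended on the low spread of the controls. Of the members, 10 were called higher with all libraries and 0 with the spread of the overexpression libraries alone, a setting chosen after seeing the data; leaving out each library in turn gave 0 to 13. Members called lower numbered 0, against 1 with pseudocount 4, 1 with quantile normalisation and 2 with the replicate block (10 higher there, 6024 genes in all against 4843); leaving out each library gave 0 to 5 (5 without overexpression 1, 2 without overexpression 2). Replicate numbers did not pair the ESC libraries (correlation of deviations -0.0072 over 20888 genes). Over all genes, 0 were called with limma on the overexpression spread alone (4935 at an unadjusted p under 0.05), without control 1 (3617) or without control 2 (3646), and 10855 without overexpression 1 or 9004 without overexpression 2. edgeR called 5002 and DESeq2 5261 ESC genes with all libraries. Members called higher numbered 11 with edgeR, 9 with DESeq2 and 9 with voom, with 0 lower in each. Platr25 was also lost without the filter (adjusted p = 0.0532) or with quantile normalisation (0.0506), Platr17 with quantile normalisation (0.0509), and Platr30 with DESeq2 (0.104), voom (0.0658) or without overexpression 2 (0.0541). The ESC sum had a log2 ratio of 0.665 without Platr10. Leaving out each ESC library gave log2 fold changes of -0.93 (without overexpression 1) to 2.29 for Platr16, and of -0.10 (without control 2) to 2.17 for Platr31, with -0.0006 without overexpression 1. The cause was not tested. In embryos, 2 members were lower, 1 to 3 when each library was left out; Platr17 stayed called in all 19 alternatives (adjusted p 0.00143 to 0.03), and Platr31 passed in 4 of 19. Of the embryo calls over all genes 33.8% were higher, against 46.5% with quantile normalisation, 46.1% with voom and 45.6% with edgeR; the median log2 fold change of all genes was -0.03, against 0.14 with quantile normalisation. Embryo calls over all genes ran from 1730 to 3578 when each library was left out. No paired analysis was possible because the embryo control columns carry other numbers than the labels. Single reads limit the low embryo members.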
